A study of Homo sapiens with 4 samples.

Results

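The AP-1 and BATF transcription factors are basic leucine zipper (bZIP) proteins, and 10 of their genes were followed here among the 37515 genes counted in Caco-2 cells: FOS, FOSB, FOSL1, FOSL2, JUN, JUNB, JUND, ATF3, BATF2 and BATF3. The genes were chosen by name, by matching each symbol to its Ensembl identifier. Caco-2 is a human colorectal carcinoma line that is widely used as a model of the intestinal epithelium, and it is a single cell line. The cells were grown on transwell inserts, and RNA-seq covered 2 unstimulated libraries taken at 0 h and 2 libraries of cells that received 60 ng/ml interferon gamma (IFNγ) in the basal compartment for 3 h. All 4 libraries came from wild-type cells, and nothing in the sample descriptions says whether the replicates were separate cultures, so the p-values measure the spread between these libraries. Because the control cells were taken at 0 h, the effect of IFNγ and that of the 3 h that passed cannot be told apart.

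FOS-type and JUN-type proteins pair through their leucine zippers to form AP-1, which binds the sequence TGACTCA. JUN proteins can also pair with each other, whereas FOS proteins need a partner. ATF3 prefers cyclic AMP response elements, which are built on the core TGACGT, and is known as a stress-induced factor that often represses its targets. The BATF proteins have the zipper but lack the large activation domains of FOS, and they act with JUN partners and with interferon regulatory factors (IRFs). Several of the genes are classical immediate-early genes, transcribed within minutes of a stimulus and then shut off, while JUND and FOSL2 are more steadily expressed.

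Members of the group can bind the promoters of their own family, so short promoter stretches that carry such letters are shown first. RefSeq windows from 250 bases before to 50 bases after the start site (GRCh38.p14) were at hand for 8 of the 10 genes, all but FOSL1 and BATF3, with 2 windows for ATF3. The core TGACGT, searched on both strands, was found in 4 of these 9 windows and in 7.98% of all 35116 windows. It lies upstream of FOS, FOSB, FOSL2 and JUND, where it is printed in capitals within 28 bases of the gene's own strand. In JUND the printed core is part of the full palindrome TGACGTCA, which 1.85% of all windows hold. Another JUND core, on the opposite strand from -87 to -82, is not printed.

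FOS, chr14:75278753-75278780, plus strand, core from -64 to -59: ggttgagcccgTGACGTttacactcatt
FOSB, chr19:45467925-45467952, plus strand, core from -60 to -55: caaggggcgggTGACGTaagcagggggg
FOSL2, chr2:28392781-28392808, plus strand, core from -66 to -61: gagtctggggtTGACGTgagtgaatcca
JUND, chr19:18281805-18281832, minus strand, palindrome from -200 to -193: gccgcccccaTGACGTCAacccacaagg

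A related site, TGACATCA, was found in the windows of JUN, ATF3 and BATF2, and in 2.61% of all windows. The stretches are shown because these 3 genes belong to 3 different branches of the family and share the same 8 letters.

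JUN, chr1:58784097-58784124, minus strand, site from -67 to -60: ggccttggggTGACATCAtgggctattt
ATF3, chr1:212565274-212565301, plus strand, site from -123 to -116: acctatgataTGACATCAtatggccact
BATF2, chr11:64990392-64990419, minus strand, site from -132 to -125: taggacagaaTGACATCAaggttgccac

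The AP-1 letters TGACTCA were found only in the FOSL2 window among the 9, from +5 to +11, and in 4.95% of all windows. The GAS motif TTCNNNGAA, the gamma interferon activation site, the interferon-stimulated response element, and the CArG box of serum response factor were in 0 of the 9 windows, against 7.66%, 3.57% and 1.29% of all windows. These matches describe letters in short windows only.

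After 3 h of IFNγ, 4 of the 9 genes that could be tested rose, and none was called lower. FOSB rose 19.2-fold, FOSL1 8.22-fold, BATF2 4.89-fold and ATF3 3.31-fold. FOSB passed edgeR's default count filter only through its IFNγ libraries, where it is high, so its call is not independent of that filter. JUNB and JUND were 1.83-fold and 1.54-fold higher with an adjusted p-value under 0.05 but stayed under the fold threshold, and JUN, FOS and FOSL2 did not pass the test. BATF3 was barely detected. Calls rest on edgeR's quasi-likelihood test over all 14820 genes that passed the filter and required an adjusted p-value (Benjamini-Hochberg) under 0.05 together with a log2 fold change beyond 1 in either direction. Of all tested genes 2.88% were called higher and 4.40% lower (7.28% together), against 4 and 0 of the 9 members. In all 9 members the 2 conditions did not overlap in CPM, the read counts scaled to a common library size: both IFNγ libraries were above both unstimulated libraries in 7 genes and below in 2, which also held for 31.6% and 30.8% of all tested genes. Values below are CPM after TMM scaling unless stated otherwise.

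**Figure D1:**
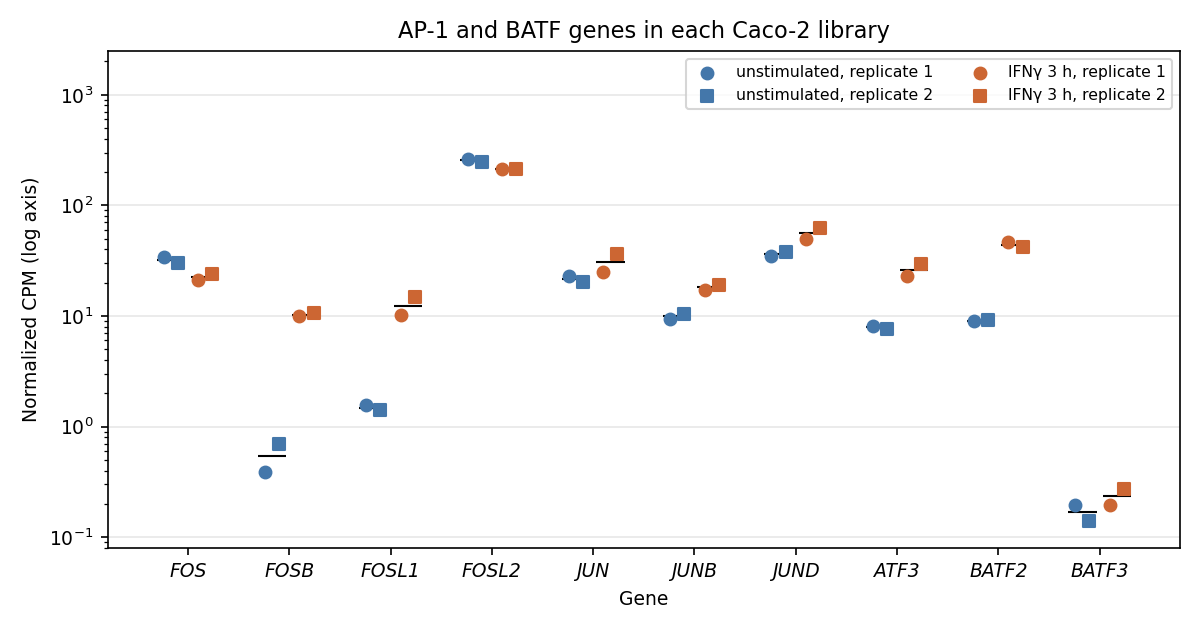
Normalized CPM on a log axis for the 10 AP-1 and BATF genes in each of the 4 Caco-2 libraries, with blue for unstimulated cells, orange for 3 h of IFNγ, circles for replicate 1, squares for replicate 2 and short lines for the means of 2 libraries. FOSB, FOSL1, ATF3 and BATF2 show the widest gaps between conditions, FOS and FOSL2 lie lower after IFNγ, and BATF3 stays under 0.3 CPM.

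The libraries held 7171455 to 10365346 counts, so that 1 CPM stood for 7.14 to 10.3 counts, and replicate 1 was the deeper in both conditions. Across all tested genes with a sequence, genes of higher exonic GC content had higher log2 fold changes (Spearman rho = 0.447 over 14518 genes, a correlation across genes, which are not independent). All 9 tested members lie above the median GC content of 47.9%, and JUND and JUNB are at the 99.8 and 97.2 percentiles. Values with the trend of GC content and length removed are therefore given for all 9 tested members. Of 14 epithelial markers 13 passed the filter, of which CDX2 alone was called higher and 0 lower, with a summed level of 7553 to 8064 CPM before and 8647 to 9548 CPM after IFNγ. The leukocyte markers summed to 16.3 to 18.2 CPM before and 21.9 to 24.6 after, with 0 of the 4 tested called. The highest of them were CSF1R, with 7.40 and 7.99 CPM before and 9.82 and 10.2 after, and CD14. CD14 had 3.51 and 4.76 CPM before and 5.74 and 8.87 after. PTPRC, the pan-leukocyte marker, had 2 counts in the replicate 1 IFNγ library and 0 in the other libraries. The stromal markers summed to 105 to 200 CPM before and 140 to 181 after, with 0 of 5 called. Most of this sum was COL1A1 alone, with 179 and 89.4 CPM before and 168 and 118 after. In bulk RNA, fewer cells of a type and less RNA per cell cannot be told apart.

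Among the FOS family, FOSB changed most. FOSB (ENSG00000125740, chromosome 19 of GRCh37, 45971253 to 45978437, plus strand) encodes a partner of JUN proteins and is a classical immediate-early gene. In the order replicate 1 and 2, its counts were 4 and 5 before IFNγ and 102 and 78 after. These correspond to 0.389 and 0.701 CPM before and 9.92 and 10.6 CPM after, with means of 0.545 ± 0.220 (SD, n = 2) and 10.3 ± 0.510 (SD, n = 2). Its mean CPM went from near the detection limit to the 35.3 percentile of the tested genes after IFNγ. The log2 fold change was 4.26 (standard error, SE, 0.367, 95% interval 3.40 to 5.12, adjusted p = 0.00114), the 19th largest increase among the 14820 tested genes. Since it rests on 4 and 5 counts before stimulation, its size is less certain than its direction, and leaving out single libraries gave values from 3.84 to 4.69. FOSB was tested only because its IFNγ libraries passed the count filter, so its call and rank are not independent of the filter.

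FOSL1 (FRA-1, ENSG00000175592, chromosome 11, 65659520 to 65668044, minus strand) is a FOS-related protein without the strong activation domain of FOS, and its gene is itself a known AP-1 target. Its counts were 16 and 10 before and 104 and 108 after IFNγ, or 1.56 and 1.40 CPM before and 10.1 and 14.7 CPM after. Both IFNγ libraries were far above both unstimulated ones, and the replicate 2 library was the higher. The log2 fold change was 3.04 (SE 0.321, adjusted p = 0.00181), the 40th largest increase, and it was 2.53 between the replicate 1 libraries and 3.20 between the replicate 2 libraries.

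FOS (ENSG00000170345, chromosome 14, 75745529 to 75748933, plus strand), the prototype of the family, did not rise with FOSB. It stood at 34.3 and 30.4 CPM in the unstimulated libraries and at 21.2 and 24.0 CPM after IFNγ. The log2 fold change was -0.52 (SE 0.154, 95% interval -0.88 to -0.16), and with an adjusted p-value of 0.0523 it did not pass the threshold. With the trend of GC content and length removed it was -0.72 (adjusted p = 0.0165), still under the fold threshold. The promoters of FOS, FOSB and FOSL2 carry the core TGACGT at nearly the same distance from the start, as shown above. Whether these sites have a part in the change of any of these genes was not tested. For every 100 normalized FOS counts there were 1.14 and 2.30 FOSB counts in the unstimulated libraries and 46.8 and 44.3 after IFNγ.

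FOSL2 (FRA-2, ENSG00000075426, chromosome 2, 28615315 to 28640184, plus strand) was by far the most abundant FOS family member. It had 263 and 246 CPM before and 214 and 213 CPM after IFNγ. Both IFNγ libraries were the lower, with a log2 fold change of -0.25 (SE 0.108, 95% interval -0.51 to -0.00026, adjusted p = 0.141). With the trend of GC content and length removed the value was -0.38 (adjusted p = 0.0422), under the fold threshold as well.

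The 3 JUN genes changed less than FOSB and FOSL1. JUNB (ENSG00000171223, chromosome 19, 12902300 to 12904129, plus strand), which can stand in for JUN but often opposes it, had 9.35 and 10.5 CPM before and 17.1 and 19.2 CPM after IFNγ. Its log2 fold change was 0.87 (SE 0.181, adjusted p = 0.0159), and 0.86 in each same-numbered pair. Its exons overlap those of HOOK2 on the opposite strand, and the handling of strand in counting is not given in the sources used here. HOOK2 itself had 67.7 to 104 CPM before and 80.0 to 99.6 after (log2 fold change 0.06, adjusted p = 0.871).

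JUND (ENSG00000130522, chromosome 19, 18390504 to 18392432, minus strand), the JUN protein typical of resting cells, had 35.2 and 38.1 CPM before and 49.6 and 63.0 CPM after, a log2 fold change of 0.62 (SE 0.158, adjusted p = 0.0334), short of the fold threshold. Like JUNB, it is an intronless gene, and it is rich in GC. With the trend of GC content and length removed, the log2 fold changes were 0.59 for JUNB (adjusted p = 0.0537) and 0.33 for JUND (adjusted p = 0.200), so neither passed the adjusted p-value in that fit. Without the replicate 2 IFNγ library, the JUND value was 0.42 (adjusted p = 0.147), and without the replicate 1 unstimulated library 0.56 (adjusted p = 0.126). JUNB had 0.78 (adjusted p = 0.0777) without the replicate 1 unstimulated library.

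JUN (ENSG00000177606, chromosome 1, 59242517 to 59249720, minus strand), the central partner of the FOS proteins and a gene known to drive its own promoter, had 23.2 and 20.3 CPM before and 25.0 and 36.6 CPM after IFNγ. The replicate 1 IFNγ library was hardly above the unstimulated libraries, and the replicate 2 library was clearly higher. The log2 fold change was 0.49 (SE 0.208, 95% interval 0.00059 to 0.98, adjusted p = 0.141). The size depended on the IFNγ library that was kept, with 0.18 without replicate 2 (adjusted p = 0.690) and 0.73 without replicate 1 (adjusted p = 0.0244). Removing the trend of GC content and length gave 0.27 (adjusted p = 0.389).

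ATF3 (ENSG00000162772, chromosome 1, 212738676 to 212794119, plus strand) had 84 and 54 counts before and 236 and 217 after IFNγ. In CPM these were 8.18 and 7.57 before and 23.0 and 29.6 after. Both IFNγ libraries were well above both unstimulated ones, the replicate 2 library again being the higher. ATF3 had a log2 fold change of 1.73 (SE 0.197, 95% interval 1.26 to 2.19, adjusted p = 0.00235), with 1.46 and 1.94 in the replicate 1 and 2 pairs.

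BATF2 (ENSG00000168062, chromosome 11, 64755417 to 64764490, minus strand), known as an interferon-induced factor that works with IRF1 in macrophages, gave the lowest adjusted p-value of the group. Its counts were 92 and 65 before and 476 and 308 after IFNγ, or 8.96 and 9.11 CPM before and 46.3 and 42.0 CPM after. The replicates lay close together in both conditions. The log2 fold change was 2.29 (SE 0.157, 95% interval 1.92 to 2.66, adjusted p = 0.000469), the 80th largest increase among all tested genes, with 2.34 and 2.18 in the replicate 1 and 2 pairs. IRF1, its known partner, rose from 19.3 and 20.2 CPM to 1201 and 1085 CPM, a log2 fold change of 5.86 (SE 0.139).

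BATF3, best known from dendritic cells, lies 65.6 kb from ATF3 on chromosome 1 (ENSG00000123685, 212859759 to 212873182, minus strand). It had 2 and 1 counts before and 2 and 2 counts after IFNγ, which is at most 2 counts in any library, so no fold change is given and it was not tested. A change of BATF3 was not detectable at this depth, although its neighbor ATF3 rose. None of the 2 genes annotated between them passed the filter. BATF itself, the founding member, had 0 and 1 counts before and 2 and 1 after.

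After the GC content and length trend was removed, the called members were at 4.08 (FOSB), 2.78 (FOSL1), 2.04 (BATF2) and 1.59 (ATF3) on the log2 scale and all 4 were still called.

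**Figure D2:**
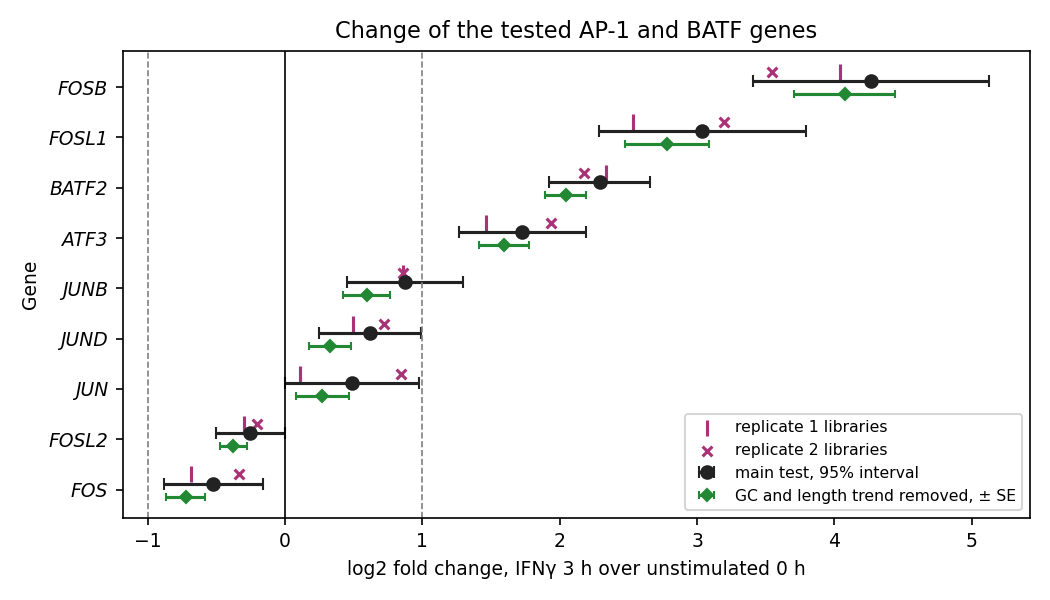
Log2 fold change of the 9 tested AP-1 and BATF genes after 3 h of IFNγ, with black points and bars for the main test and its 95% interval, green diamonds and bars for the fit with the GC and length trend removed and its SE, and purple marks for same-numbered libraries (computed with a prior count of 2). The intervals of FOSB, FOSL1, BATF2 and ATF3 lie wholly above the dashed line at 1, and the green points of JUNB, JUND and JUN lie closer to 0 than the black ones.

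Levels of different genes were compared per kb of merged exons (CPM per kb, with exon lengths from GENCODE 44 on GRCh37). In unstimulated cells FOSL2 stood highest at 35.5 ± 1.71 (SD, n = 2) CPM per kb, followed by JUND with 19.0 ± 1.08, FOS with 10.2 ± 0.860, JUN with 6.0 ± 0.558, JUNB with 5.42 ± 0.448, BATF2 with 3.21 ± 0.0373, ATF3 with 1.97 ± 0.109, FOSL1 with 0.784 ± 0.0588, FOSB with 0.0981 ± 0.0396 and BATF3 with 0.0652 ± 0.0150. JUN and JUNB overlapped between libraries in this order, as did FOSB and BATF3, and the other neighbors did not. After IFNγ the order was FOSL2 (29.8 ± 0.105), JUND (29.2 ± 4.92), BATF2 (15.7 ± 1.07), JUNB (9.93 ± 0.819), JUN (8.49 ± 2.26), FOS (7.10 ± 0.624), FOSL1 (6.58 ± 1.73), ATF3 (6.57 ± 1.18), FOSB (1.85 ± 0.0918) and BATF3 (0.0910 ± 0.0216). JUND and FOSL2 then overlapped, and so did each pair of neighbors from JUNB to ATF3. BATF2, below JUNB before, stood above it after IFNγ, and FOSL1, far below FOS before, reached a level that overlapped that of FOS.

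The makeup of the summed FOS family level differed between conditions. The 4 FOS family genes together had 48.4 and 44.7 CPM per kb before and 43.7 and 47.0 after IFNγ, and the libraries overlapped (exact permutation test over the 4 libraries, two-sided p = 0.667). Without division by length the FOS sums did not overlap, with 299 and 278 CPM before and 255 and 263 CPM after (exact permutation test, two-sided p = 0.333). FOSL2 made up 76.3 ± 0.571% (SD, n = 2) of this sum before and 65.9 ± 3.63% after. FOS went from 21.8 ± 0.635% to 15.6 ± 0.568%, FOSL1 from 1.68 ± 0.0328% to 14.4 ± 3.07% and FOSB from 0.213 ± 0.0969% to 4.08 ± 0.00828%. The 3 JUN genes summed to 29.7 and 31.1 CPM per kb before and to 42.0 and 53.3 after, with no overlap (exact permutation test, two-sided p = 0.333, the smallest that 2 against 2 libraries can give). JUND held 62.4 ± 1.57% of the JUN sum before and 61.3 ± 0.0404% after, JUNB 17.8 ± 0.903% and 21.0 ± 1.81%, and JUN 19.8 ± 2.47% and 17.7 ± 1.77%. The ratio of the FOS sum to the JUN sum was 1.63 and 1.44 before and 1.04 and 0.883 after IFNγ. Adjusted over these 2 tests, both p-values were 0.667, and the shares were not tested.

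**Figure D3:**
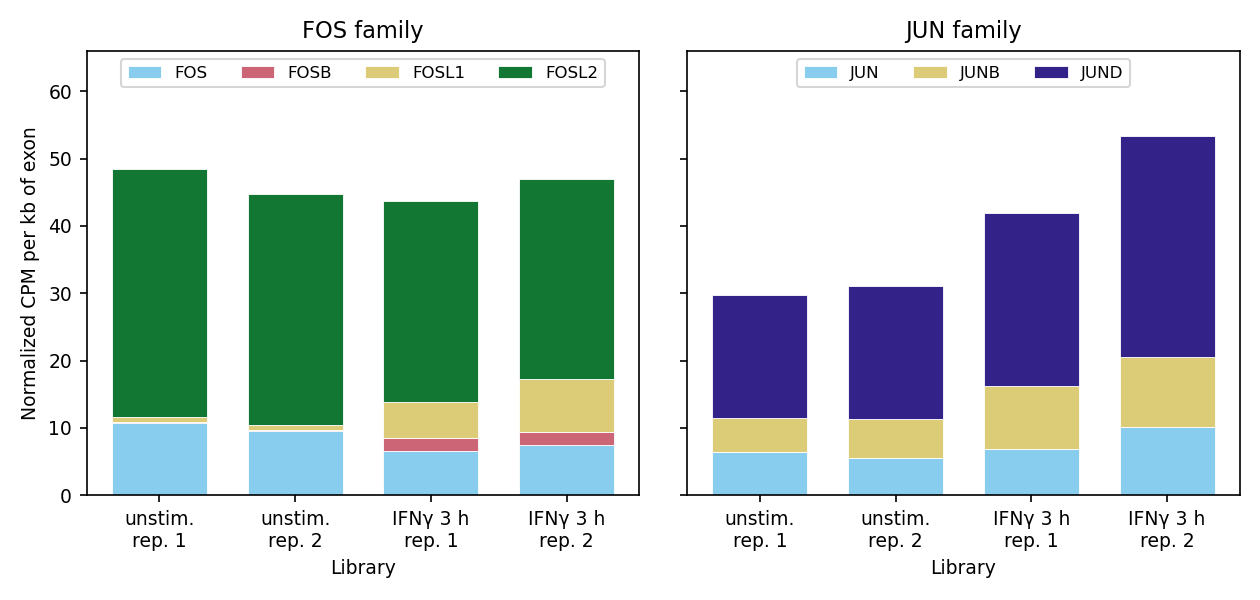
Stacked normalized CPM per kb of exon of the FOS family (left) and the JUN family (right) in each of the 4 Caco-2 libraries, on the same linear axis from 0. FOSL1 and FOSB take up a visible part of the FOS bars only after IFNγ while the height of the FOS bars stays between 43.7 and 48.4, and the JUN bars are taller in both IFNγ libraries.

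Other bZIP genes, which pair with or compete with AP-1, moved in both directions. Of 28 genes on this list 27 were tested, 2 were called higher and 3 lower (7.41% and 11.1%, against 2.88% and 4.40% of all tested genes), and the median log2 fold change was 0.02, against -0.01 over all tested genes. After removal of the GC content and length trend 3 were called higher and 2 lower, and NFE2L2, the oxidative stress factor NRF2, was the added one (1.18, against 0.81 without the removal). MAFF, a small MAF protein without an activation domain, rose from 7.86 to 21.4 mean CPM (log2 fold change 1.45, adjusted p = 0.00303). JDP2, a JUN-binding repressor of AP-1, rose from 8.84 to 20.5 mean CPM (log2 fold change 1.21, adjusted p = 0.00460), and its exons overlap an antisense gene, JDP2-AS1, which had 0.876 and 1.26 CPM before and 1.85 and 3.27 CPM after (log2 fold change 1.25, adjusted p = 0.107). JDP2 lies between FOS and BATF on chromosome 14, 146 kb from FOS, and was the only called gene between them, of 2 tested. NFIL3, a bZIP repressor with a circadian role, fell from 75.9 to 17.1 mean CPM (log2 fold change -2.15, adjusted p = 0.000431). ATF2, which pairs with JUN at cyclic AMP response elements, fell from 89.3 to 28.5 mean CPM (log2 fold change -1.64, adjusted p = 0.00128), and MAF fell from 260 to 127 (log2 fold change -1.03, adjusted p = 0.00333). MAF dropped under the fold threshold with upper quartile scaling (-0.99), with the trend of GC content and length removed (-0.95) and without the replicate 1 unstimulated library (-0.90). Without the replicate 1 IFNγ library 6 genes of the list were called lower. The most abundant gene of the list, NFE2L1, had 853 mean CPM before and 1013 after (log2 fold change 0.25, adjusted p = 0.138).

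The kinases and factors that lie upstream of AP-1, the MAPK cascades with serum response factor and its ELK partners, showed no common direction. Of 35 genes 34 were tested, 1 was called higher and 2 lower, shares of 2.94% and 5.88% that are close to the 2.88% and 4.40% of all tested genes, and the median log2 fold change was 0.05. MAPK7 (ERK5) rose from 23.3 to 53.2 mean CPM (log2 fold change 1.19, adjusted p = 0.00245). BRAF fell from 81.5 to 34.5 mean CPM (log2 fold change -1.24, adjusted p = 0.00287) and MKL2, a coactivator of serum response factor now named MRTFB, from 62.0 to 24.5 (log2 fold change -1.33, adjusted p = 0.0128). None of the 3 genes, after the GC content and length trend was removed, passed the fold threshold, with 0.98 for MAPK7, -0.57 for BRAF and -0.94 for MKL2. ELK1 was called as well (1.07) without the replicate 2 unstimulated library. RPS6KA3, the most abundant gene of the list, had 305 mean CPM before and 192 after (log2 fold change -0.66, adjusted p = 0.00773), under the fold threshold.

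Of 26 genes known as AP-1 targets, 14 were tested and 13 of these had a positive log2 fold change, as had 7326 of all 14820 tested genes, with a median of 0.61. Of the 14, 2 were called higher (14.3%, against 2.88% of all tested genes) and 0 lower. CCND1 (cyclin D1) rose from 207 and 225 CPM to 492 and 583 CPM (log2 fold change 1.31, SE 0.127, adjusted p = 0.00148). HMOX1 (heme oxygenase 1) rose from 71.6 and 83.1 CPM to 145 and 172 CPM (log2 fold change 1.03, adjusted p = 0.00384). HMOX1 was under the fold threshold with the trend of GC content and length removed (0.78), without the replicate 1 unstimulated library (0.93) and without the replicate 2 IFNγ library (0.89). At the adjusted p-value alone 5 of the 14 were higher and 0 lower, against 9.02% and 11.0% of all tested genes. EZR (ezrin), the most abundant of the list, had 379 mean CPM before and 577 after (log2 fold change 0.61, adjusted p = 0.0122). VEGFA was the 1 tested gene of the list with a negative value (-0.51, adjusted p = 0.0673). Among the matrix metalloproteinase genes, textbook AP-1 targets in other cells, MMP1 had 4.48 and 6.16 CPM before and 6.61 and 8.32 after (log2 fold change 0.50, adjusted p = 0.249). The genes MMP3, MMP7, MMP9, MMP10 and MMP13 had at most 8 counts in any library.

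Among the STAT and IRF genes known to act with AP-1 and BATF proteins, STAT3 rose with a log2 fold change of 1.14 (adjusted p = 0.00152) and IRF8 with 1.11 (adjusted p = 0.00211), besides IRF1. IRF9 had 1.56 mean CPM before and 4.26 after (log2 fold change 1.43, adjusted p = 0.151), and it was called without the replicate 2 IFNγ library (1.99). IRF4, a BATF partner in lymphocytes, had 0 counts in every library.

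**Figure D4:**
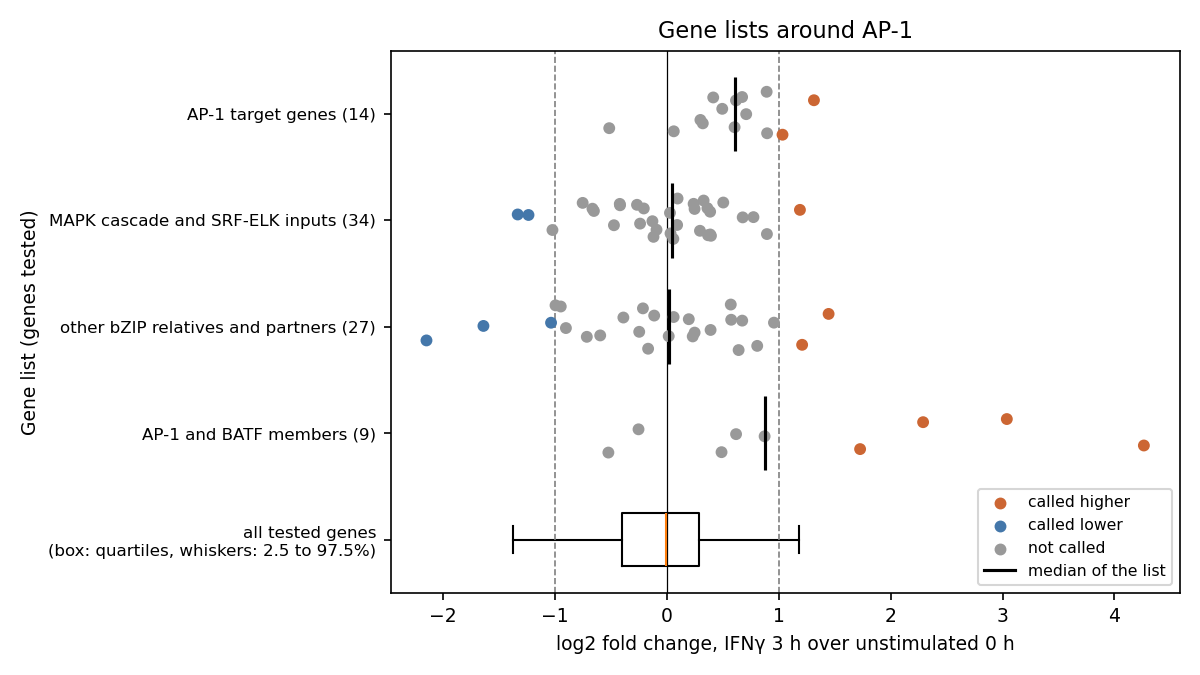
Log2 fold change of every tested gene on 4 lists, the AP-1 and BATF members and the lists around them, colored by whether the gene was called higher, lower or not called, with a black line at each list's median, above a box of all 14820 tested genes. The AP-1 targets lie mostly to the right of 0 but under the dashed line at 1, while the other bZIP genes and the MAPK genes spread to both sides.

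For each called member, the 3 other called genes with the nearest pattern were found by the Euclidean distance of log2 CPM over the 4 libraries, centered on the unstimulated mean. The distance uses a prior count of 2, which draws genes with few counts together whatever their fitted fold change. Nearest to ATF3 were MIDN (distance 0.119), NCOA5 (0.167) and LINC02554 (0.198). Nearest to BATF2 were KIAA0040 (0.129), SERTAD1 (0.231) and the unnamed gene ENSG00000251196 (0.248). Nearest to FOSL1 were JCAD (0.232), TNFRSF12A (0.263) and CMPK2 (0.306), and nearest to FOSB were NNMT (0.427), IFIT5 (0.482) and UBD (0.552).

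**Figure D5:**
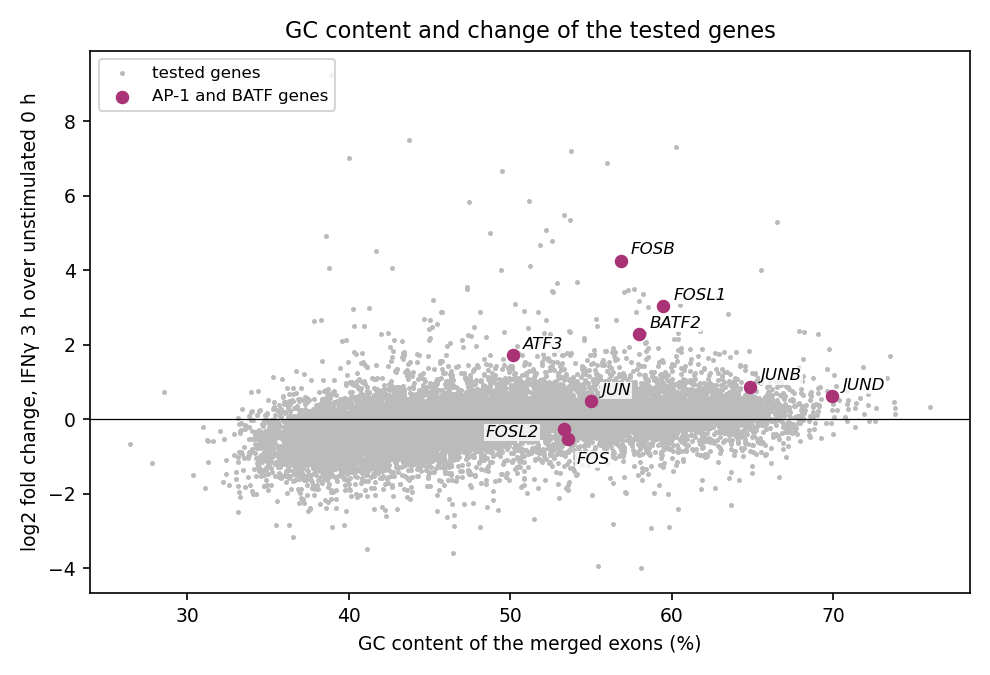
Log2 fold change after IFNγ against the GC content of the merged exons in percent for the tested genes (grey), with the 9 tested AP-1 and BATF genes in purple. The grey cloud rises toward high GC content, JUNB and JUND sit at its right edge within the cloud, and FOSB, FOSL1 and BATF2 lie above most of it at a GC content of 56.8 to 59.5%.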

How the data were processed

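RNA-seq was done on 4 Caco-2 libraries prepared with a TruSeq RNA kit. The deposited table holds unnormalized counts for each Ensembl identifier and library, as the authors made them. The submitters' processing notes name HISAT 0.5.1 and HTSeq 0.6.1p1, and the genome build, annotation and strand setting are not given in the sources used here. Symbols were paired with 96.5% of the identifiers through GENCODE 44 on GRCh37, which also gave coordinates, exon lengths and GC content. Promoter windows are RefSeq's on GRCh38.p14, and no coordinates were converted.

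Genes were filtered with edgeR's default (14820 kept), scaled by TMM and tested with glmQLFTest of edgeR 4.0.16 (R 4.3.3), without a block. Standard errors were derived from the F statistic and the fold change. As an alternative, a loess trend on GC content and exon length was subtracted from each library. Further alternatives were other scalings, DESeq2 1.42.0, other filters and thresholds, the replicate block, and each library left out. The edgeR fits without and with the block and the DESeq2 fit were also run on simulated counts, and the outcome is not reported here. The fit with the GC content and length trend removed was not run on them.

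The members, gene lists, tests and alternatives were chosen with earlier results of these data known. All members are named. From each list except the marker lists the called genes and the most abundant one are named. The 3 nearest called genes of each called member and genes lying between members are named as well. From the marker lists the called gene, CDX2, is named. Further genes (ELK1, VEGFA, NFE2L2, ATF7, the MMP genes, PTPRC, CSF1R, CD14, COL1A1, BATF, IRF4, IRF9 and HOOK2) were named after their values were seen. A part of the STAT and IRF list, and with it the counts over that list, is not reported here.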

Additional observations from a re-analysis of the deposited data

How the results depend on the processing

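FOSB, FOSL1, ATF3 and BATF2 were called higher under every alternative in which they were tested. In all 116 member values under the alternatives that kept both thresholds, the direction and the call were the same. FOSB had too few counts for the fit with at least 10 counts in every library. At the adjusted p-value alone FOS passed with library size only (0.0419), with at least 10 counts in every library (0.0483), with the replicate block (0.0218) and without the replicate 2 IFNγ library (0.0268), and FOSL2 passed with the replicate block (0.0260). With the trend of GC content and length removed together with the block, FOS (0.000660), FOSL2 (0.00114), JUNB (0.0103) and JUND (0.0335) passed it, all under the fold threshold. The same-numbered libraries deviated together (r = 0.415), but with 2 pairs and no stated link it is not known whether the numbers pair the samples. With the replicate block, log2 fold changes were 4.26 for FOSB, 3.00 for FOSL1, 1.71 for ATF3 and 2.29 for BATF2, and 4 members were called. IRF9 (1.45) and ATF7 (adjusted p = 0.00184, at the fold threshold) became called with the block, the latter giving 4 lower bZIP genes. In the main fit ATF7 had -0.995 (adjusted p = 0.0130), just short of the fold threshold. It was also called lower with DESeq2 size factors (-1.001), library size only (-1.037) and DESeq2 (-1.005). Its value was -1.08 without the replicate 2 unstimulated library and -1.25 without the replicate 1 IFNγ library. With the trend of GC content and length removed it was not called.

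Without a fold threshold 6 members were called, JUNB and JUND besides the 4, and the other called genes were 7 higher and 6 lower of the other bZIP genes, 6 and 6 of the MAPK list, 5 higher of the AP-1 targets, and 1337 and 1626 of all genes. At an adjusted p-value of 0.01, 1 of the MAPK list and 382 of all genes were lower. With the trend of GC content and length removed, 0 of the MAPK list were higher and 0 lower (0 and 1 with the block), 1 AP-1 target was higher (1 with the block), and 293 of all genes were lower. Library size only gave 1 AP-1 target. With single libraries left out, called genes ran from 2 to 6 for lower bZIP genes, 1 to 2 for higher MAPK genes and 1 to 2 for higher AP-1 targets, and 554 to 1112 for all genes called lower. The log2 ratio of the FOS family sum ran from -0.094 to 0.019, and without division by length it was -0.16. The cause was not tested. The fits without a filter and without the replicate 2 IFNγ library had an infinite prior degrees of freedom, so their p-values do not use a gene's own spread.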
